A study of Homo sapiens with 6 samples.

Results

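The spindle assembly factors described here are 10 genes whose products bind microtubules of the mitotic spindle without being motors: TPX2, NUSAP1, PRC1, ASPM, SPAG5, KNSTRN, DLGAP5, HMMR, TACC3 and PSRC1. They were found by symbol in the authors' deposited table, which lists 26364 genes, and all 10 had a row with a mean and a fold change. RNA-seq libraries came from REH, a human line established from B-precursor acute lymphoblastic leukaemia. One group was treated with S3I-201, a small molecule directed at the transcription factor STAT3, at 50 µM for 6 h, and the other was kept for 6 h with DMSO, its solvent, with 3 libraries in each group from experiments that the labels call independent. For every gene the table gives a mean normalized count over all 6 libraries and the comparison of the groups (log2 fold change, p-value, adjusted p), so the results below show no value per library. REH is a single line, so the results hold for these cultures of it.

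Which group is the baseline of the fold change is nowhere stated. The authors named the comparison DMSO vs S3I-201, which can be read as DMSO over S3I-201, the opposite of the reading used here. A positive value was taken to mean higher in S3I-201, because DMSO sorts first and is then the default baseline of the authors' tool, and under the opposite reading every direction below would turn and the implied means of the groups would change places. The genes were chosen on their shared function with the fold changes and p-values of this comparison in view, so their fold changes and p-values describe them and are no independent evidence for the group. Genes with very few reads had means in repeated steps, each worth a single read, which put the size factors between 0.573 and 1.27, equal to library totals of roughly 6560000 to 14500000 counts. Under the reading of direction used here, both the lowest and the highest size factor were of S3I-201 libraries. The next lowest, 0.948, was of a DMSO library. What the low depth of that S3I-201 library adds to the results was not tested. Of 9 markers of B-precursor cells, 8 had a mean normalized count of at least 100 in the authors' deposited table and VPREB1 was at 0. Markers of T cells reached at most 5.05 and those of erythroid cells were at 0, whereas MPO from the myeloid list stood at 978 and PDGFRB from the stromal list at 654 in the authors' deposited table, and their part in the results was not tested.

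The mitotic spindle is built from microtubules that are nucleated near chromosomes and at the poles, gathered into fibres that attach to kinetochores, and bundled between the separating chromosomes in anaphase. The gradient of the GTP-bound GTPase Ran around chromosomes frees several spindle factors from importins, among them TPX2, NUSAP1 and DLGAP5. Transcripts of most of these factors accumulate in G2 and mitosis, under the DREAM repressor complex and the activators MYBL2 and FOXM1, and many of the proteins are destroyed as cells leave mitosis. In a bulk sample, fewer cells in G2 and mitosis cannot be told apart from less of these transcripts per cell.

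All 10 spindle assembly factors had a negative log2 fold change in the authors' deposited table, from -1.89 for PSRC1 to -0.43 for NUSAP1. Of all genes with an adjusted p, 53.6% had a negative value. The median over the 10 was -0.75, beside -0.02 over the 11912 genes with an adjusted p. At an adjusted p under 0.05, a DESeq2 value of the authors, 4 genes were called lower (PSRC1, HMMR, TPX2 and TACC3), 2 did not pass (PRC1 and SPAG5) and 4 had no p-value beside their fold change (DLGAP5, KNSTRN, ASPM and NUSAP1). Of all genes with an adjusted p, 1.45% were called lower, 4.45% higher and 5.90% in either direction. Since the genes were proposed from this same comparison, nothing is read from the difference between these shares.

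**Figure D1:**
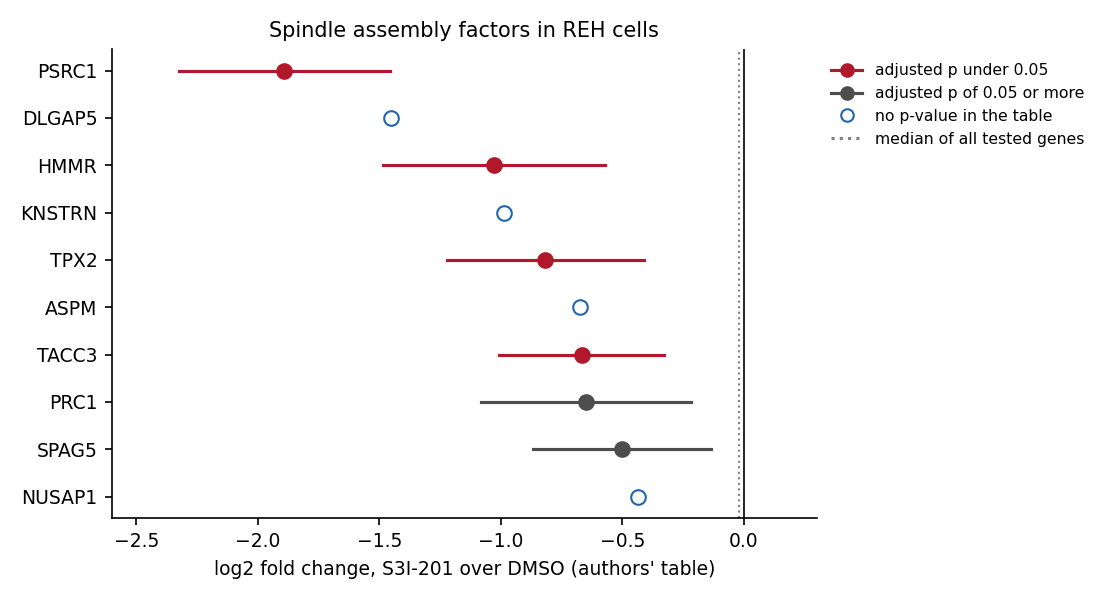
Log2 fold change of each spindle assembly factor, S3I-201 over DMSO, from the authors' deposited table, with 95% intervals from the implied SE for the 6 genes that have a p-value. All 10 points lie below 0, from PSRC1 at -1.89 to NUSAP1 at -0.43, and the 4 open points have no p-value and thus no bar.

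The implied SE was obtained by dividing the size of the log2 fold change by the normal quantile that belongs to its p-value, and the 95% intervals below are built from it. The implied mean of a group is the mean normalized count that the pooled mean and the fold change give together for groups of equal size. The fold changes seem to have been shrunken, as a gene with a single read had no more than 0.042 in size. The true distance between the group means may thus be larger than the implied means show. The implied SE and the intervals would likewise not be those of fold changes without shrinkage.

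Of the factors that act in nucleation and at the spindle poles, TPX2 had the most reads, with 3467 as its mean normalized count in the authors' deposited table. TPX2 activates the kinase Aurora A and promotes microtubule nucleation near chromosomes. Its implied mean was 2511 in S3I-201 and 4423 in DMSO. TPX2 was called lower, with a log2 change of -0.82 in the authors' deposited table (95% interval -1.22 to -0.41, adjusted p = 0.00274 by the authors' DESeq2). TACC3, which with the polymerase CKAP5 and clathrin forms bridges between the microtubules of kinetochore fibres, had an implied mean of 1697 in S3I-201 and 2695 in DMSO. Its log2 fold change in the authors' deposited table was -0.67 (95% interval -1.01 to -0.33, adjusted p = 0.00394 by DESeq2). HMMR, a pole protein that binds TPX2 and is also known as the hyaluronan receptor RHAMM, had 447 as its mean normalized count in the authors' deposited table, close to the 450.2 of PSRC1. Its implied mean was 294 in S3I-201 and 599.7 in DMSO, with a log2 change of -1.03 in the authors' deposited table (95% interval -1.48 to -0.57, adjusted p = 4.62e-04 by DESeq2). TPX2 and HMMR, which bind each other, both fell, and their 95% intervals overlap. ASPM, a large protein that focuses microtubule minus ends at the poles and whose loss causes microcephaly, had an implied mean of 1294 in S3I-201 and 2067 in DMSO. Its log2 change of -0.68 in the authors' deposited table carried no p-value.

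Among the factors of kinetochore fibres, PSRC1 had the largest decrease of the 10. PSRC1, also called DDA3, controls spindle microtubule dynamics by way of a depolymerising kinesin. Its mean normalized count was 450.2 in the authors' deposited table, and the implied mean was 191 in S3I-201 and 709 in DMSO. The log2 fold change in the authors' deposited table was -1.89 (95% interval -2.32 to -1.46, adjusted p = 6.27e-15 by DESeq2). Among genes with an adjusted p it had the second most negative fold change in the table. DLGAP5, known as HURP, binds and stabilises kinetochore fibres near chromosomes. It came next after PSRC1, with a log2 change of -1.45 in the authors' deposited table and no p-value, and its implied mean was 427 in S3I-201 and 1168 in DMSO. NUSAP1, which bundles microtubules around chromosomes, stood at the other end. In the authors' deposited table its mean normalized count, 3210, was close to that of TPX2, and its log2 change of -0.43 was the smallest of the 10, also with no p-value. The implied mean of NUSAP1 was 2731 in S3I-201 and 3689 in DMSO.

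SPAG5 and KNSTRN encode astrin and kinastrin, partners in a complex that holds kinetochores on microtubule ends. KNSTRN, which had no p-value, stood at -0.99 in the authors' deposited table, with an implied mean of 319.6 in S3I-201 and 634 in DMSO. SPAG5 had -0.50 in the authors' deposited table and did not pass (95% interval -0.87 to -0.13, adjusted p = 0.0985 by DESeq2). Its implied mean was 1349 in S3I-201 and 1911 in DMSO. The fold change of KNSTRN lies outside that interval for SPAG5, but KNSTRN has no error of its own in the table, and the difference between these partners was not tested. PRC1, which crosslinks antiparallel microtubules of the anaphase midzone and recruits the kinesin KIF4A there, had an implied mean of 1147 in S3I-201 and 1801 in DMSO. Its log2 fold change in the authors' deposited table was -0.65 (95% interval -1.08 to -0.22), just short of the threshold (adjusted p = 0.0530 by DESeq2).

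**Figure D2:**
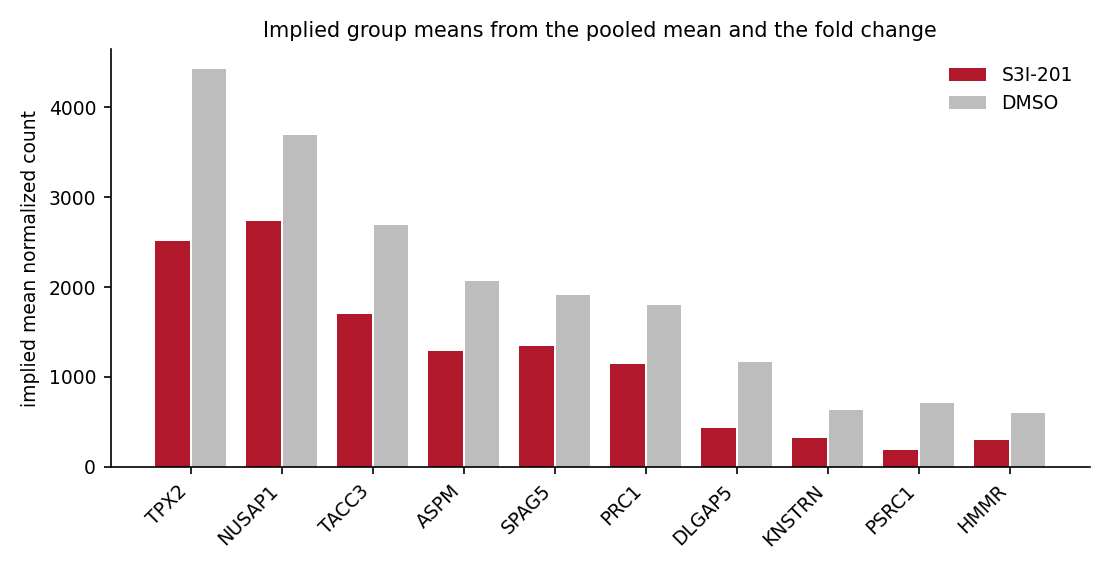
Implied mean normalized count of each factor in S3I-201 (red) and DMSO (grey), in order of the pooled mean, with no error because the pooled table gives none per group. The S3I-201 bar is the shorter of each pair, from 191 against 709 for PSRC1 to 2731 against 3689 for NUSAP1.

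The 4 factors with the most negative fold changes (PSRC1, DLGAP5, HMMR and KNSTRN) were also the 4 with the fewest reads, with mean normalized counts from 447 to 797 in the authors' deposited table. The other 6 had counts from 1474 to 3467 and fold changes from -0.82 to -0.43 in the authors' deposited table. Read counts also grow with transcript length, so levels were compared between genes per kb of merged exon (GENCODE 29). On that scale the implied mean was highest for NUSAP1, at 949.9 counts per kb in S3I-201 and 1283 in DMSO, followed by TPX2 at 697 in S3I-201 and 1227 in DMSO. TACC3 had 260.0 counts per kb in S3I-201 and 413 in DMSO, SPAG5 had 247 in S3I-201 and 349 in DMSO, and PRC1 had 208 in S3I-201 and 326 in DMSO. The order of the other 5 differed between the groups. In S3I-201 it ran from ASPM at 119 over DLGAP5 at 116, KNSTRN at 87.5 and HMMR at 74.7 to PSRC1 at 67.0 counts per kb, and the 10 factors spanned 14.2-fold. In DMSO it ran from DLGAP5 at 318 over PSRC1 at 248, ASPM at 189.9 and KNSTRN at 174 to HMMR at 152 counts per kb, a span of 8.42-fold over the 10. PSRC1 thus lay below ASPM in S3I-201 and above it in DMSO. No error between libraries can be set on these levels, so neighbours in the order cannot be separated.

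As a share of the DMSO level, the decrease spanned a wide range, and these shares depend on DMSO being the baseline. The implied mean in S3I-201 was 73.0% below that in DMSO for PSRC1, which under the opposite reading would be 271% above it. For DLGAP5 it was 63.4% below (174% above if turned), for HMMR 51.0% below (104% if turned), for KNSTRN 49.6% below (98.4% if turned) and for TPX2 43.2% below (76.2% if turned). ASPM was 37.4% below (59.8% above if turned), TACC3 37.0% (58.8% if turned), PRC1 36.3% (57.0% if turned), SPAG5 29.4% (41.6% if turned) and NUSAP1 26.0% (35.1% if turned). The 95% interval of PSRC1 ends at -1.46 and does not reach those of TPX2, TACC3, PRC1 and SPAG5, while it overlaps that of HMMR, which begins at -1.48. The other 5 intervals all overlap one another, so the order among HMMR, TPX2, TACC3, PRC1 and SPAG5 is not fixed by these data. These estimates come from the same 6 libraries and are not independent, and their intervals are those of fold changes that seem shrunken. On the log2 scale 3 of the 10 were at or below -1, among them DLGAP5, which has no p-value. Of the genes with an adjusted p, a set without DLGAP5, 0.185% were at or below -1. The choice of the genes from this comparison makes no test of these shares.

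**Figure D3:**
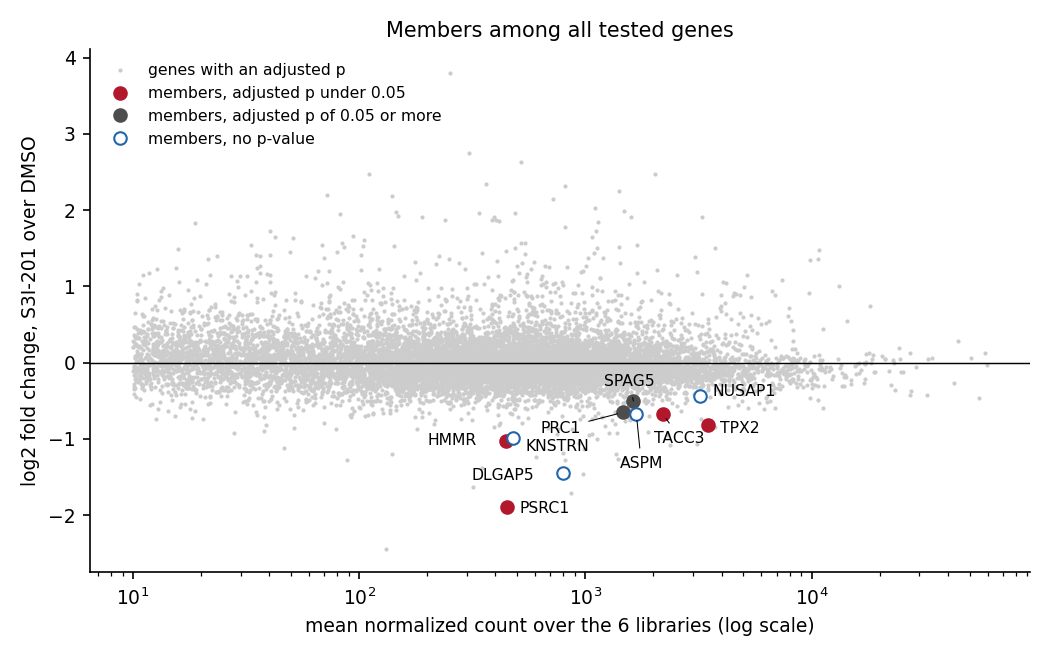
Mean normalized count over the 6 libraries (log scale) against log2 fold change, S3I-201 over DMSO, for the 11912 genes with an adjusted p (grey) and the 10 spindle assembly factors. PSRC1, DLGAP5, HMMR and KNSTRN lie at the lower left with means up to 797, and TPX2 and NUSAP1 at the right with means from 3210.

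The implied SE of the 6 factors with a p-value was larger than is usual for genes of like abundance. It had a median of 0.21, beside 0.18 over all genes with an adjusted p, and in 6 of 6 it was above the median of the 200 tested genes nearest in mean. It was 0.23 for HMMR against 0.16 for its neighbours, 0.22 for PSRC1 against 0.17 and 0.22 for PRC1 against 0.15. For TPX2 it was 0.21 against 0.14, for SPAG5 0.19 against 0.15 and for TACC3 0.17 against 0.14. No p-value was given for 4 of the 10 factors, while 0.684% of the genes with a fold change and a mean of at least 10.0 had none. DESeq2 by default withholds the p-value of a gene in which a library has an outlying count. Whether that happened here, and in which library, cannot be read from pooled values and was not tested. The median log2 fold change was -0.74 over the 6 factors with a p-value and -0.83 over the 4 without, in the authors' deposited table.

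Promoters of genes of this kind are known for CCAAT boxes, which NF-Y binds, and for the cell cycle genes homology region, abbreviated CHR, where DREAM and its activating counterpart bind. RefSeq windows of 300 bases, from 250 before to 50 after the gene start (GRCh38.p14), were on hand for 9 of the 10 factors, TPX2 being the other. Both strands were searched for CCAAT, for the usual CHR form TTTGAA, for a second form TTCGAA and for a further form TTTAAA. The 100 bases before the start are shown for PSRC1, HMMR and PRC1, as examples with a CHR form close before the start, and for TACC3, a called gene whose window held none of these motifs. Capitals mark the motif matches, and the stretches lie at chr1:109283146-109283245 on the minus strand for PSRC1, chr5:163460532-163460631 on the plus strand for HMMR, chr15:90994536-90994635 on the minus strand for PRC1 and chr4:1720531-1720630 on the plus strand for TACC3.
PSRC1: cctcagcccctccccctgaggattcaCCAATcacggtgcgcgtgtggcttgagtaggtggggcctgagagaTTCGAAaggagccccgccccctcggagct
HMMR: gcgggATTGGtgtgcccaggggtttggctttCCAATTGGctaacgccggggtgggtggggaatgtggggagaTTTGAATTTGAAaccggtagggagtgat
PRC1: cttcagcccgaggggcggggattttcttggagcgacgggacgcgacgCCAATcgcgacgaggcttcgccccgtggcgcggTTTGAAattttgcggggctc
TACC3: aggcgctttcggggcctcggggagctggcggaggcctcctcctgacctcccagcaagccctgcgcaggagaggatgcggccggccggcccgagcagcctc

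In PSRC1 the CCAAT box began 74 bases and the TTCGAA form 29 bases before the start. HMMR held overlapping CCAAT matches on both strands, beginning 69 and 66 bases before the start, and a tandem pair of TTTGAA beginning 28 and 22 bases before it. PRC1 held CCAAT at 53 and TTTGAA at 20 bases before the start. CCAAT was found in 6 of the 9 windows, beside 34.6% of all 35116 RefSeq windows and 34.8% of the 13125 windows of genes with an adjusted p, where a gene can have several starts. At least 1 CHR form was found in 7 of 9, beside 25.1% of all windows and 18.3% of those of tested genes, and both kinds of motif together in 6 of 9, beside 9.70% and 7.25%. The usual form TTTGAA was found in 6 of 9 windows, beside 15.2% of all windows and 10.3% of those of tested genes. The second form was found in 1 (1.45% of all, 1.66% of tested) and TTTAAA in 2 (12.2% of all, 8.27% of tested). Since genes of this kind are known for these motifs, nothing is read from the difference between these shares. The windows of TACC3 and KNSTRN held none of these letters, and that of SPAG5 only a TTTGAA on the reverse strand 4 bases after the start. A match is a description of the letters and no measure of binding. The log2 fold change was -0.67 for TACC3 and -0.99 for KNSTRN in the authors' deposited table. All 10 factors were negative and were chosen with this comparison in view, so nothing about the motifs is read from these values. A part of the motifs in the fold changes was not tested.

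**Figure D4:**
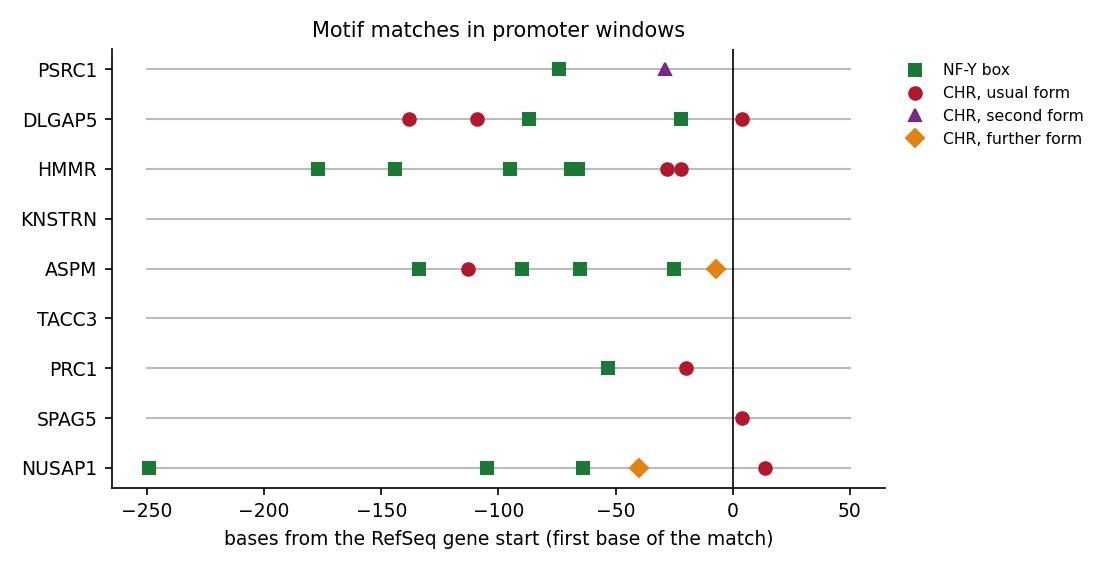
Position of motif matches from 250 bases before to 50 after the RefSeq start in 9 spindle assembly factors, ordered from the largest decrease at the top; squares mark CCAAT (the box that NF-Y binds) and the other symbols the CHR forms, usual (circles), second (triangle) and further (diamonds). PSRC1, HMMR and PRC1 have a CHR form close before the start and CCAAT boxes further upstream, and KNSTRN and TACC3 have no match.

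The genes lie on 7 chromosomes, with PRC1, KNSTRN and NUSAP1 on chromosome 15 and PSRC1 and ASPM on chromosome 1. PSRC1 spans chromosome 1 from 109279556 to 109283145 and ASPM the same chromosome from 197084127 to 197146669 (GRCh38, whole genes as RefSeq gives them). TACC3 lies on chromosome 4 from 1720631 to 1745171, HMMR on chromosome 5 from 163460632 to 163491941 and DLGAP5 on chromosome 14 from 55148135 to 55191585. PRC1 lies on chromosome 15 from 90966040 to 90994535, SPAG5 on chromosome 17 from 28577574 to 28599025 and TPX2 on chromosome 20 from 31739290 to 31801800. KNSTRN, on chromosome 15 from 40382721 to 40394288, and NUSAP1, from 41332881 to 41381046, are 939 kb apart, and their log2 fold changes were -0.99 and -0.43 in the authors' deposited table. The library kit does not mark the strand, and in GENCODE 29 several factors share exon bases with other genes. On the same strand NUSAP1 shares 62.2% of its exon length with AC087721.2, PRC1 57.6% with AC068831.7 and SPAG5 8.86% with AC005726.1, all annotated as protein-coding. None of these 3 names is in the table, and how the authors' annotation and counting treated such reads is not given in the sources used here, so the counts of NUSAP1 and PRC1 in particular are uncertain. On the opposite strand 3 factors share exon bases, at most 7.35% of their own exon length. The opposite-strand genes had few reads in the authors' deposited table, with a mean normalized count of 16.1 for PRC1-AS1, 2.57 for SPAG5-AS1 and 0 for HMMR-AS1, beside 1474 for PRC1, 1630 for SPAG5 and 447 for HMMR.

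Called genes were found in 6 of 9 lists of other spindle components, which were drawn up with results of these data known. Of their 81 genes 74 had an adjusted p, and of these 14 were called lower (18.9%, beside 1.45% of all genes tested), 0 higher and 60 did not pass by the authors' DESeq2. At an unadjusted p under 0.05 there were 25 genes, of which 1, TACC1, was higher. The median log2 fold change over the 74 was -0.19, beside -0.02 over all genes with an adjusted p. Since the lists were drawn up with results known, nothing is read from the shares called, here or list by list below.

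Kinases and motors that work with the factors held 4 lower genes among 8 tested, with a median of -0.65. Of all genes tested 1.45% were lower. AURKA, the kinase that TPX2 activates, had a log2 change of -1.23 (from the authors' deposited table, with an implied SE of 0.23 and adjusted p = 1.25e-05 by DESeq2). The mitotic kinase PLK1 stood at -1.28, the minus-end motor KIFC1 at -0.75 and the plus-end motor KIF18B at -0.75 in the authors' deposited table. KIF2C, a depolymerising kinesin, had -0.22 and no p-value in the authors' deposited table. Genes of the central spindle and of cytokinesis also had 4 lower among 8 tested, with a median of -0.79 and 4 not past. The lower genes were KIF20A at -1.70, KIF23 at -1.19, ECT2, which activates the GTPase RhoA at the cell equator, at -0.93 and the scaffold ANLN at -0.87 in the authors' deposited table. RACGAP1, the partner of KIF23 in centralspindlin, had -0.51 and no p-value in the authors' deposited table.

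The Ran and importin list holds genes that govern when TPX2, NUSAP1 and DLGAP5 are free to act. In it 3 of 8 tested genes were lower, beside 1.45% of all genes tested. All 8 fold changes were negative, beside 53.6% of all genes tested, with a median of -0.30. KPNA2, the importin alpha that binds TPX2, had a log2 change of -1.08 (from the authors' deposited table, with an implied SE of 0.20 and adjusted p = 3.36e-06 by DESeq2). RANGAP1, which activates the GTPase function of Ran, stood at -0.56, and RCC1, the exchange factor of Ran on chromatin, at -0.43 in the authors' deposited table. RCC1 passed only narrowly (adjusted p = 0.0453 by DESeq2), and RAN itself had -0.33 in the authors' deposited table and did not pass (adjusted p = 0.138). KPNA2 and RAN have processed copies elsewhere in the genome, so reads of them may be shared.

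Around TACC3, the bridge of TACC proteins, CKAP5 and clathrin had a median of 0.14. Of its 7 tested genes 1 was lower, beside 1.45% of all genes tested. The lower gene was GTSE1, a clathrin-bound spindle protein, at -0.75 in the authors' deposited table (adjusted p = 0.0125 by DESeq2). CKAP5 had -0.50 in the authors' deposited table and did not pass (adjusted p = 0.0929), while TACC1, the paralogue of TACC3, had 0.47 (adjusted p = 0.224) and the clathrin heavy chain CLTC 0.18 (adjusted p = 0.654). Other spindle microtubule-associated proteins had 1 of 8 lower and a median of -0.25, the lower gene being FAM83D at -0.81 in the authors' deposited table. The authors' deposited table put CKAP2L at -0.54, CCSAP at -0.34 and EML4 at -0.24, none of them past the threshold.

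Pole and cortical anchors had 1 of 10 tested genes lower, beside 1.45% of all genes tested, and a median of -0.09. NDE1, a dynein regulator, stood at -0.61 in the authors' deposited table (adjusted p = 0.00540 by DESeq2), against 0.15 for its paralogue NDEL1 (adjusted p = 0.706) and 0.20 for PAFAH1B1, the LIS1 protein that binds both (adjusted p = 0.639). CEP192, a centrosome scaffold, had -0.26 there and did not pass (adjusted p = 0.496, from the authors' deposited table). GPSM2, the cortical protein LGN that orients the spindle, had -1.43 and no p-value in the authors' deposited table, and the centrosome scaffold PCNT had -0.08 and no p-value.

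Augmin, the gamma-tubulin ring complex and the plus-end tracking proteins were the lists without a called gene, with 25 tested genes together. They are grouped here for that reason. The 0 called of 25, beside 5.90% of all genes tested in either direction, is thus fixed by the grouping, and nothing is read from it. Augmin branches new microtubules from existing ones, and 0 of its 8 tested genes passed by DESeq2, with 0 at an unadjusted p under 0.05 and a median of -0.07. Nearest to the threshold in the authors' deposited table were HAUS2 at 0.17, HAUS7 at -0.19, HAUS6 at -0.13 and HAUS1 at -0.09. In the gamma-tubulin ring complex 0 of 11 passed by DESeq2, with 1 at an unadjusted p under 0.05, TUBGCP4 at -0.35 in the authors' deposited table (adjusted p = 0.216). All 11 had negative values, with a median of -0.16, among them MZT1 at -0.37, TUBGCP5 at -0.28 and TUBG1 at -0.26 in the authors' deposited table, and reads of TUBG1 may be shared with the near-identical TUBG2. Plus-end tracking proteins had 0 of 6 called by DESeq2, 0 at an unadjusted p under 0.05 and a median of 0.06, with CLASP1 at 0.17, MAPRE1, which encodes EB1, at 0.10, CLIP1 at 0.10 and CLASP2 at -0.05 in the authors' deposited table.

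**Figure D5:**
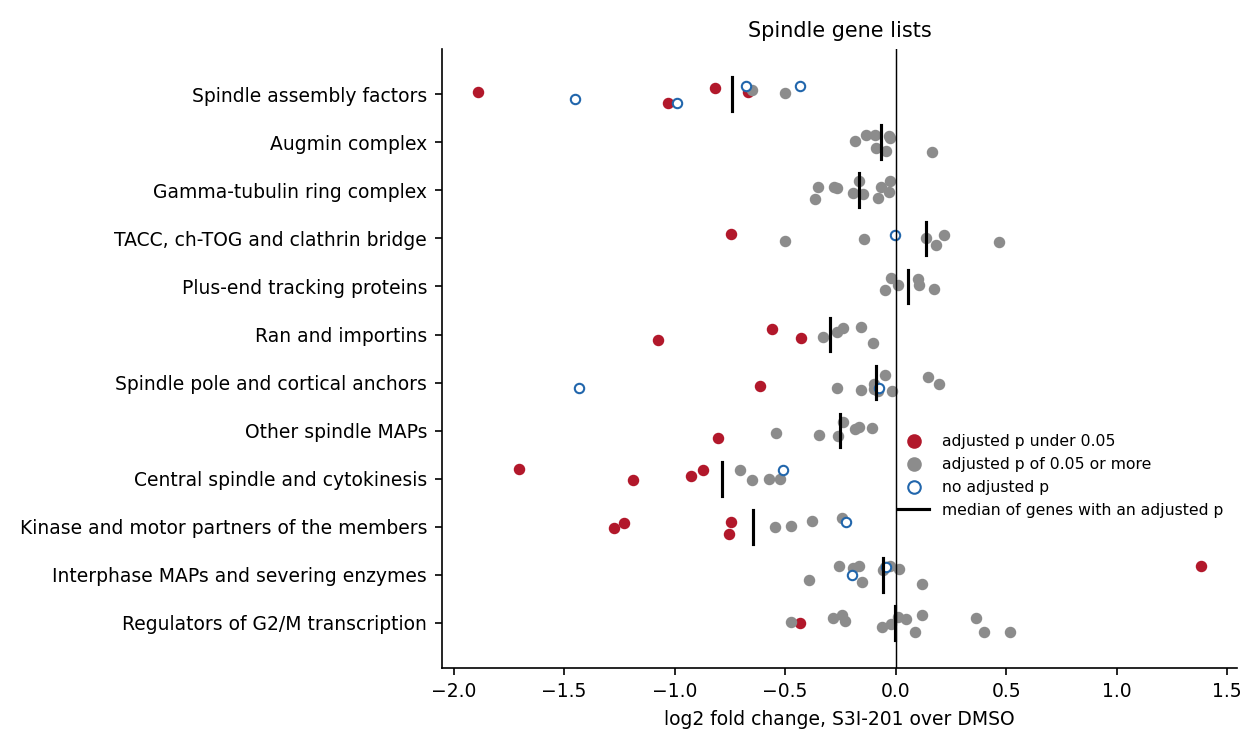
Log2 fold change, S3I-201 over DMSO, of the spindle assembly factors and of 11 lists of other genes; each point is a gene with a fold change, and the black bar is the median of the genes with an adjusted p. Central spindle genes, at a median of -0.79, and partners of the factors, at -0.65, lie to the left, while augmin and plus-end tracking genes lie near 0.

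Microtubule-associated proteins and severing enzymes of interphase cells gave a list for comparison. Of 11 tested, 0 were lower, 1 was higher and 10 did not pass, with a median of -0.06. Of all genes tested 1.45% were lower and 4.45% higher, and nothing is read from the counts of this list. The higher gene was MAP1A, best known from neurons, with a log2 change of 1.38 (from the authors' deposited table, with an implied SE of 0.17 and adjusted p = 1.19e-13 by DESeq2) at a mean normalized count of 3068. The authors' deposited table put MAP7D3 at -0.39, SPAST at -0.26 and MAP1S at -0.19, none of them past the threshold.

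The last list holds regulators of G2 and mitotic transcription. Of 14 tested, beside 5.90% of all genes called in either direction, 1 was lower, 0 were higher by DESeq2 and 13 did not pass. The median was -0.00, and 4 genes had an unadjusted p under 0.05, of which 1 was higher. The lower gene was NFYA, a subunit of the factor NF-Y, at -0.43 in the authors' deposited table (adjusted p = 0.0453 by DESeq2). FOXM1 had -0.47 (adjusted p = 0.211), RBL2, a pocket protein of DREAM, -0.28 (adjusted p = 0.305) and LIN37, another part of DREAM, 0.52 (adjusted p = 0.0982) in the authors' deposited table. LIN37 was the gene with the positive value at the unadjusted p.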

How the data were processed

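The labels' protocols name an RNeasy column kit and the TruSeq RNA v2 library method. The submitters' processing notes list hg38, bcl2fastq 2.19, Trimmomatic, Bowtie2, Picard, featureCounts and DESeq2 without role or order. The annotation, strand setting and formula are not given in the sources used here. In the 1 table that the authors deposited, the mean normalized count is a signal averaged over all 6 libraries, per the file headers. Its log2 fold change, p-value and adjusted p are likewise the authors' own, per the file headers, the last for 11912 genes. The planned count test needs counts per library, so calls rest on the deposited adjusted p, at 0.05. Implied SE, group means, counts and motif matches were computed in Python 3.11.15 with SciPy 1.17.1, and the adjustment steps were tested on simulated data. The factors and all lists were chosen with earlier results of these data known. Named were the 10 factors and, per list, up to 4 genes with the smallest adjusted p, all called genes and those with no p-value. Intervals rest on the authors' DESeq2 p-values and on fold changes that seem shrunken. They are no plain measure of the spread between these libraries and cover nothing beyond them. The number of libraries limits the precision. Tried as well were other thresholds, adjustment without the abundance filter, a minimum fold, centring, and subtraction of the median in each of 20 abundance bins.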

Additional observations from a re-analysis of the deposited data

How the results depend on the processing

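The 4 lower calls among the spindle assembly factors, the 14 lower and 0 higher calls among the other spindle genes and the median of -0.75 stayed within 1.5 times, or within 1 implied SE for the median, under all alternatives run. These were adjusted p thresholds of 0.01 and 0.1, adjustment without the abundance filter (16974 genes), a minimum size of 0.5, centring and removal of the abundance trend for the counts, and the last 2 with a restriction to factors with an adjusted p for the median. PRC1 (adjusted p = 0.0530, 0.0530 to 0.0800 over its alternatives) and SPAG5 (0.0985, 0.0985 to 0.160) passed only at 0.1. The largest move of a factor was 0.0703 on the log2 scale, that of TPX2 with the abundance trend removed. No paired analysis was possible because the table used here holds no values per library; for the same reason no library was left out in turn and no other normalization or filter on counts was run.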

Other observations

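Among all 83 genes with a fold change and no p-value in the authors' deposited table, 56 were negative and 27 positive. Of the genes with an adjusted p, 53.6% were negative. Those at or below -1 on the log2 scale, named after their values were seen, were CENPA, the centromeric histone, at -1.54, DLGAP5 at -1.45, GPSM2 at -1.43 and CENPF, a kinetochore protein, at -1.15 in the authors' deposited table. The positive side past 1 held IL21R, a cytokine receptor, at 1.87 and STX5, a Golgi syntaxin, at 1.29, and CDC6 and DTL, both of DNA replication control, stood at 0.76 and 0.66 in the authors' deposited table.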
